A study of Mus musculus with 10 samples.

Results

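Tumour necrosis factor (TNF) ligands, their receptors and the feedback genes of the transcription factor NF-kB were followed as a set of 10 genes in the inflamed mouse colon. The genes were chosen by symbol, and all 10 of 10 were measured, among 19505 genes in all. They are the ligands Tnf, Lta and Ltb, the receptors Tnfrsf1a and Tnfrsf1b, the inhibitors Tnfaip3 and Nfkbia, the noncanonical NF-kB subunits Relb and Nfkb2, and the ubiquitin ligase gene Birc3. Each had 1 named probe set. RNA came from whole colon tissue of wild-type C57BL/6 mice and was measured on 10 single-colour arrays, 1 per sample. All mice had drunk 3% dextran sulfate sodium (DSS), a polysaccharide that injures the colonic epithelium, and had received intraperitoneal anti-PD1, which blocks a brake on T cells. The 5 ECP samples came from mice that had additionally been given donor cells treated by extracorporeal photopheresis (ECP), an exposure of leukocytes to a photosensitiser and ultraviolet A light, and the 5 control samples from mice with colitis that are labelled as controls. The labels do not say whether the control mice received any donor cells, so the effect of ECP and that of a cell transfer cannot be told apart. Healthy colon was not analysed here, and the labels give no age, sex, antibody dose or time.

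TNF is made mainly by activated macrophages and T cells, and lymphotoxin, built from the products of Lta and Ltb, by lymphocytes and innate lymphoid cells. TNF binds the receptors made from Tnfrsf1a and Tnfrsf1b and releases NF-kB from its inhibitors, while lymphotoxin acts on a separate receptor and drives a noncanonical route through Relb and Nfkb2, which is needed for lymphoid follicles of the gut. NF-kB in turn switches on Nfkbia and Tnfaip3, whose products shut the signal off again, so that these transcripts are commonly read as a sign of recent NF-kB activity. Antibodies against TNF are used to treat inflammatory bowel disease and colitis caused by checkpoint inhibitors.

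The promoters of 5 of the genes are shown, those of Ltb, Tnfaip3, Nfkbia and Nfkb2 because they hold matches to the motif of NF-kB, and that of Tnf because it had the largest difference of the set and holds none. They are RefSeq windows of GRCm38.p6, of which the 130 bases before the transcript start are given in the direction of transcription, with capitals marking matches to the NF-kB consensus motif of 10 bases on either strand. The windows are chr17:35202008-35202137 (minus strand) for Tnf, chr17:35194377-35194506 (plus strand) for Ltb, chr10:19015411-19015540 (minus strand) for Tnfaip3, chr12:55492648-55492777 (minus strand) for Nfkbia and chr19:46304607-46304736 (plus strand) for Nfkb2.
Tnf: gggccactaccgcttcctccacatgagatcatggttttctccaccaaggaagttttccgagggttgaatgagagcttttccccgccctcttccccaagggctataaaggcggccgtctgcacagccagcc
Ltb: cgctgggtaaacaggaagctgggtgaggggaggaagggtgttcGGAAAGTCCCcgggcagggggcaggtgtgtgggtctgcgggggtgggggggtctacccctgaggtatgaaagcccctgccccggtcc
Tnfaip3: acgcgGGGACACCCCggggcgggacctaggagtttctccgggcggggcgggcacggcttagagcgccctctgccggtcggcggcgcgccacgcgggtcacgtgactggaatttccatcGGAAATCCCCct
Nfkbia: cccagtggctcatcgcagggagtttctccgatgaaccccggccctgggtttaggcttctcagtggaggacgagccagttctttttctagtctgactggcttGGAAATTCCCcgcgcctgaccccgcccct
Nfkb2: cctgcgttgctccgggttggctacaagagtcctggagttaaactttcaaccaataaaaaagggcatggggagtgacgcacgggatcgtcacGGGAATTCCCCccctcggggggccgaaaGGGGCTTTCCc
In the 250 bases before the start, Nfkbia held 1 match, beginning at position -29, and Ltb 1 match, beginning at -87. Tnfaip3 held 2 matches, beginning at -125 and -12, and the first of these reads as a match on both strands. Nfkb2 held 3, beginning at -39, -38 and -11, of which the first reads on both strands and overlaps the second. Of the 9 genes with a window in the table, 4 had a match, and 5 (Tnf, Lta, Tnfrsf1a, Tnfrsf1b and Birc3) had none in these bases. Counted per gene in the same way, 8.23% of 27025 genes had a match in a window. A match was found in 7.25% of all 32851 windows listed, and 1.029% held 2 or more. Relb is named only. A second start of Tnfaip3 had no match, and 2 further starts of Nfkb2 had 1 each, at -236 and -225 of their own windows.

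None of the 10 genes passed the test between the groups. With limma's moderated test and Benjamini-Hochberg adjustment over all genes, 0 of 10 had an adjusted p under 0.05 (smallest 0.903), and so did 0 of all 19505 genes (0%). At an unadjusted p under 0.05 there was 1 of 10, Nfkb2, lower in the ECP arrays, against 5.08% of all genes in either direction and 2.77% lower. An exact permutation test over the 252 ways to split the arrays, two-sided, gave 1 of 10 under 0.05, again Nfkb2. It was run on the 10 genes only, so no share of all genes stands beside that count. Of the 10 genes 4 had a higher mean in the ECP arrays and 6 a lower one, with a median difference of -0.05 on the log2 scale, and over all genes 53.3% were higher with a median of 0.01. The groups overlapped for all 10 genes, where 1.22% of all genes had groups that did not overlap. Whether the 10 arrays stand for 10 mice is not stated in the labels, and if not, the spread behind each p-value may be technical.

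**Figure D1:**
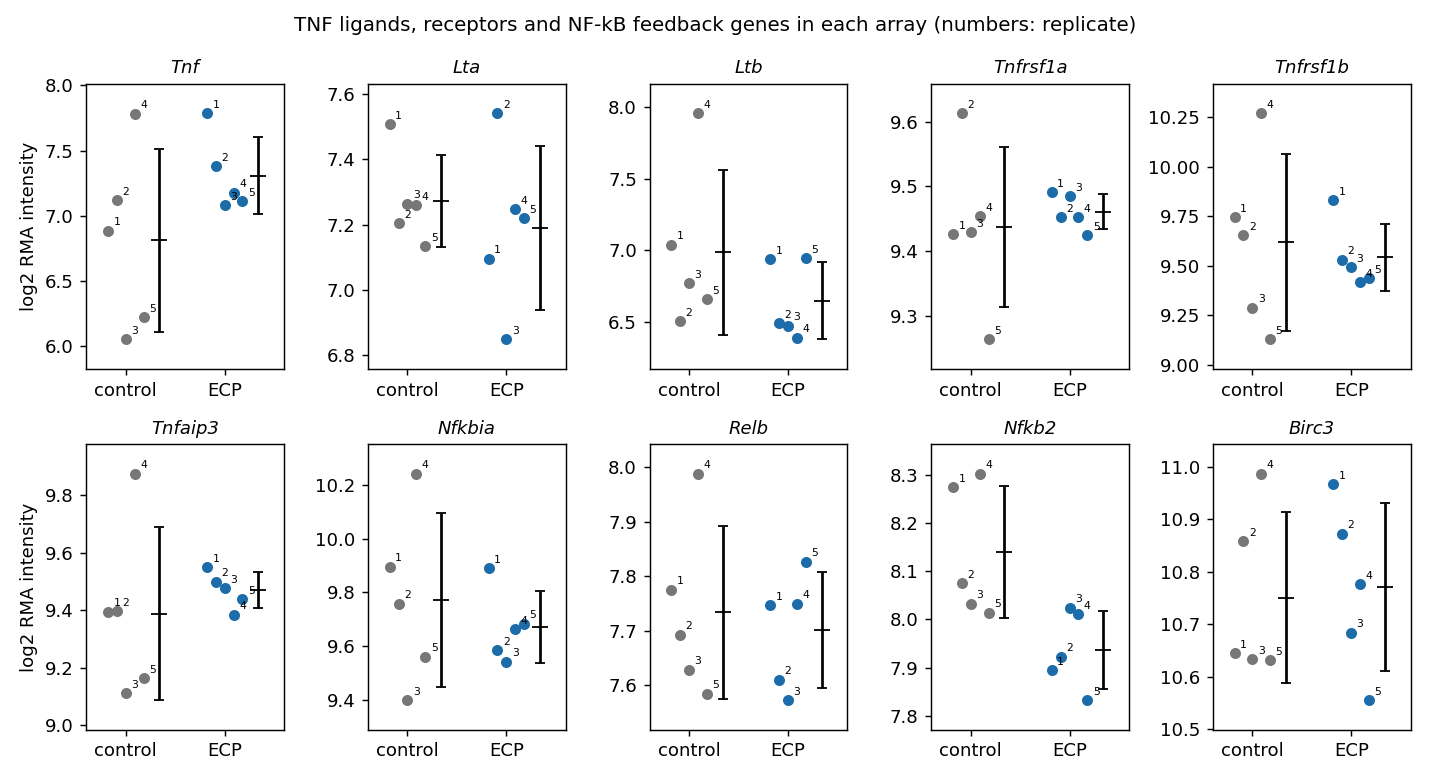
Level of each of the 10 genes (log2 RMA intensity, vertical axis, scaled per panel) in the 5 control arrays (grey) and the 5 ECP arrays (blue), numbered by replicate; the bar beside each group is its mean with SD. The groups overlap in every panel, and control replicate 4 is the highest array for 7 genes.

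Among the ligands, Tnf had the largest difference of the 10 genes. Its log2 intensity was 7.79, 7.38, 7.08, 7.18 and 7.11 in ECP replicates 1 to 5 and 6.89, 7.12, 6.05, 7.78 and 6.22 in control replicates 1 to 5. Control replicates 3 and 5 were the lowest of all arrays, control replicate 1 also lay below every ECP array, and control replicate 4 stood level with the highest ECP array. The means were 7.31 ± 0.29 (SD, n = 5) with ECP and 6.81 ± 0.70 (SD, n = 5) without, a difference of 0.50 (SE 0.28, 95% interval -0.13 to 1.12; limma adjusted p = 0.998) or 1.41-fold on the linear scale. The difference was 0.31 without control replicate 3 and 0.74 without control replicate 4 (limma adjusted p = 0.546, and 0.36 at the smallest over all alternatives). The gene was higher in the ECP mean under each of the 22 alternatives that tested it, from 0.31 to 0.95. Its level lay just below the median of all genes, so a filter at that median left it out.

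Ltb, which codes for the membrane-anchoring chain of lymphotoxin, ran the other way. It was at 6.94, 6.49, 6.47, 6.39 and 6.94 in ECP replicates 1 to 5 and at 7.04, 6.50, 6.77, 7.96 and 6.66 in control replicates 1 to 5. Control replicate 4 was far above the rest, control replicate 1 just above the ECP arrays, and the other controls lay among them. The difference was -0.34 (SE 0.24, 95% interval -0.86 to 0.19; limma adjusted p = 0.998), shrank to -0.10 without control replicate 4 and was 0.0027 without control replicates 1 and 4. Lta, which codes for the soluble lymphotoxin chain, lay between 6.85 and 7.54 in the ECP arrays and between 7.13 and 7.51 in the controls, with a difference of -0.08 (SE 0.12). It was the 1 gene of the set whose SD was larger in the ECP arrays (0.25 against 0.14).

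The receptor gene Tnfrsf1a, expressed by most cell types, was the steadiest of the set in the ECP arrays. Its level was 9.42 to 9.49 with ECP and 9.26 to 9.61 in the controls, a difference of 0.02 (SE 0.07, 95% interval -0.13 to 0.17). Tnfrsf1b, the receptor found mostly on leukocytes and endothelium, varied more. Its levels were 9.83, 9.53, 9.49, 9.42 and 9.44 in ECP replicates 1 to 5 and 9.75, 9.65, 9.29, 10.27 and 9.13 in control replicates 1 to 5. Control replicate 4 was again the highest array, control replicates 3 and 5 were the lowest, and ECP replicate 1 stood above the other ECP arrays. The difference was -0.08 (SE 0.18, 95% interval -0.47 to 0.32) and turned to 0.09 without control replicate 4.

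Of the feedback inhibitors, Tnfaip3 codes for an enzyme that edits ubiquitin chains and ends NF-kB signalling. It was at 9.55, 9.50, 9.48, 9.38 and 9.44 in ECP replicates 1 to 5 and at 9.39, 9.40, 9.11, 9.87 and 9.16 in control replicates 1 to 5. All ECP arrays lay within a narrow band, with control replicate 4 above it and control replicates 3 and 5 below it. The SD was 0.06 with ECP and 0.30 without, and the means differed by 0.08 (SE 0.12, 95% interval -0.19 to 0.35; limma adjusted p = 0.998). Without control replicate 4 the difference was 0.20 (limma adjusted p = 0.739, and 0.635 at the smallest over all alternatives), and without control replicate 3 it was 0.01.

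Nfkbia, which codes for the inhibitor that holds NF-kB in the cytoplasm, was at 9.89, 9.58, 9.54, 9.66 and 9.68 in ECP replicates 1 to 5. In control replicates 1 to 5 it was at 9.90, 9.76, 9.40, 10.24 and 9.56. Control replicate 4 was highest and control replicate 3 lowest, and the other arrays of both groups were mixed. The difference was -0.10 (SE 0.14, 95% interval -0.40 to 0.21), or 0.02 without control replicate 4.

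The noncanonical subunit gene Nfkb2, whose promoter above held 3 consensus matches, came closest to separating the groups. It was at 7.89, 7.92, 8.02, 8.01 and 7.83 in ECP replicates 1 to 5 and at 8.27, 8.08, 8.03, 8.30 and 8.01 in control replicates 1 to 5. All controls but replicate 5 lay above every ECP array. The means were 7.94 ± 0.08 and 8.14 ± 0.14 (SD, n = 5 each), a difference of -0.20 (SE 0.08, 95% interval -0.37 to -0.03), with an unadjusted limma p of 0.0234, an adjusted p of 0.903 and an exact permutation p of 0.0159. The smallest p that 252 splits allow is 0.00794. The difference was -0.16 without control replicate 4, -0.10 without control replicates 1 and 4 and -0.09 with the level of pancreatic acinar markers as a covariate, and it was below 0 under each alternative run. Its partner Relb lay between 7.57 and 7.83 in the ECP arrays and between 7.58 and 7.99 in the controls, with a difference of -0.03 (SE 0.09).

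Birc3, which codes for a ubiquitin ligase that keeps TNF-stimulated cells alive, was at 10.97, 10.87, 10.68, 10.78 and 10.56 in ECP replicates 1 to 5 and at 10.65, 10.86, 10.63, 10.99 and 10.63 in control replicates 1 to 5. High and low arrays occurred in both groups. The difference was 0.02 (SE 0.10, 95% interval -0.20 to 0.24), the smallest of the set.

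**Figure D2:**
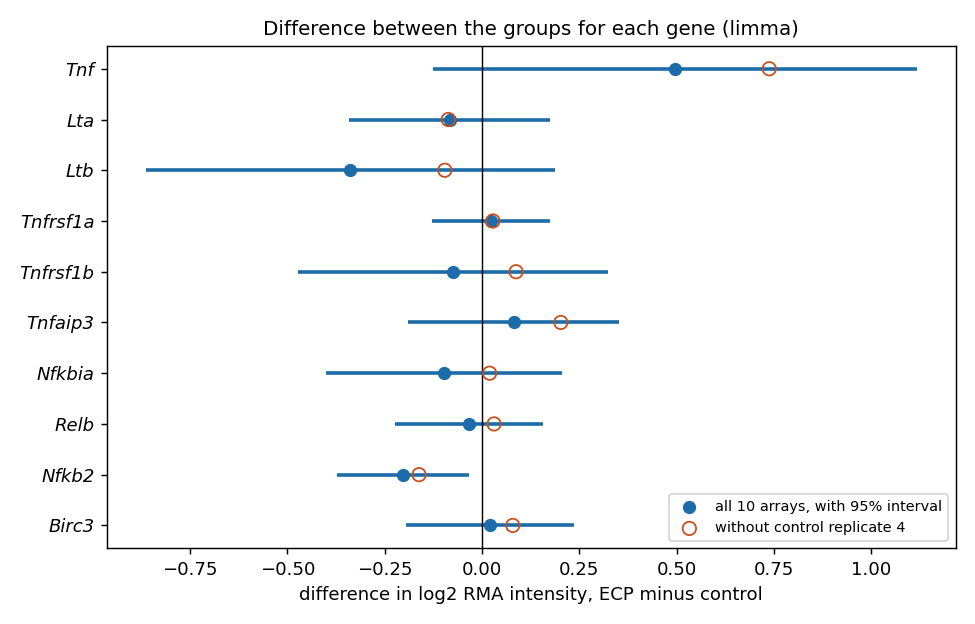
Difference in log2 RMA intensity, ECP minus control, for each gene with its 95% interval over all 10 arrays (filled) and the difference without control replicate 4 (open). The interval spans 0 for every gene but Nfkb2, and leaving out control replicate 4 moves 9 of 10 differences upward, Lta being the exception.

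The control arrays differed more among themselves than the ECP arrays did. The SD was larger in the controls for 9 of 10 genes, with a median ratio of 2.27, against 65.8% of all genes and a median ratio of 1.27. Control replicate 4 was the highest of the 10 arrays for 7 genes (Ltb, Tnfrsf1b, Tnfaip3, Nfkbia, Relb, Nfkb2 and Birc3), while it was the highest for 15.7% of all genes. Control replicates 3 and 5 were the lowest for 3 and 2 genes, against 8.52% and 7.79% of all genes. Without control replicate 4, 6 of 10 genes had the larger SD in the controls, and 55.4% of all genes did. Without control replicates 1 and 4 it was 5 of 10 genes and 41.3% of all genes. Without these arrays the larger spread of the controls was thus not seen over all genes, and 5 of 10 is near that share. The control SD then came from fewer arrays than the ECP SD. All ECP arrays were kept in these counts. The count of genes higher in the ECP arrays, 4 of 10 over all arrays, also changed with the control arrays left out. It was 3 of 10 without control replicate 1, 7 of 10 without control replicate 4 and 2 of 10 without control replicate 5. Without control replicates 1 and 4 it was 8 of 10. Tnf, Lta, Tnfaip3 and Nfkb2 kept their sign in each of these cases. The share of all genes that were higher was not counted for them. Whether the 2 groups differ in spread was not tested.

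Markers of other cells moved with these arrays. The 9 measured B cell markers had a mean level of 8.67 in control replicate 4, of 7.09 in ECP replicate 1 and of 5.91 to 6.28 in the other 8 arrays. The 8 T cell markers were at 7.27 in control replicate 4 and 5.91 to 6.48 elsewhere. Monocyte and macrophage markers, 9 in number, were highest in ECP replicate 1 (8.78) and control replicate 4 (8.77), the 2 arrays with the most Tnf. They were lowest in control replicates 1 and 5 (7.68 and 7.87). The order did not match throughout, as control replicate 3, with the least Tnf (6.05), was at 8.16. Control replicate 1 had more Tnf (6.89) than control replicates 3 and 5. Neutrophil markers, also 9, were at 8.11 in control replicate 4 and 5.73 in control replicate 5, with 6.30 to 6.92 in the remaining arrays. Pancreatic acinar markers, 13 in number, reached 12.33 in control replicate 4 and 10.76 in control replicate 1, with 6.67 to 7.60 in the others. The means of the adipocyte and smooth muscle lists were higher in the ECP arrays, as were 8 of 8 genes of each. Adipocyte markers were at 6.72 to 7.69 with ECP and at 6.33 (control replicate 5) to 7.23 without, and smooth muscle markers at 10.37 to 10.88 with ECP and at 9.77 (control replicate 1) to 10.67 without. Their part in the Tnf difference was not tested. The 7 dendritic cell markers were at 5.71 to 6.13 on all arrays. Markers of colon epithelium, 10 of 10 measured, were at 12.10 in control replicate 4 and 12.26 to 12.39 elsewhere, so the markers of the labelled tissue were high on every array. In whole tissue, fewer cells of a type and less RNA per cell cannot be told apart.

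With the B cell level as a covariate the Tnf difference was 0.67 (SE 0.17, limma unadjusted p = 0.00219, adjusted p = 0.36), and with the acinar level it was 0.95 (SE 0.26, adjusted p = 0.691). The acinar level was 6.67 to 6.96 in the ECP arrays and 6.91 to 12.33 in the controls. It was far above the rest in control replicates 1 and 4, and control replicate 5 came next at 7.60. The acinar level was thus partly tied to the grouping, and the 0.95 depends largely on control replicates 1 and 4. With the monocyte and macrophage level the Tnf difference was 0.38 (SE 0.21, adjusted p = 0.769). Other lists were not used as covariates.

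**Figure D3:**
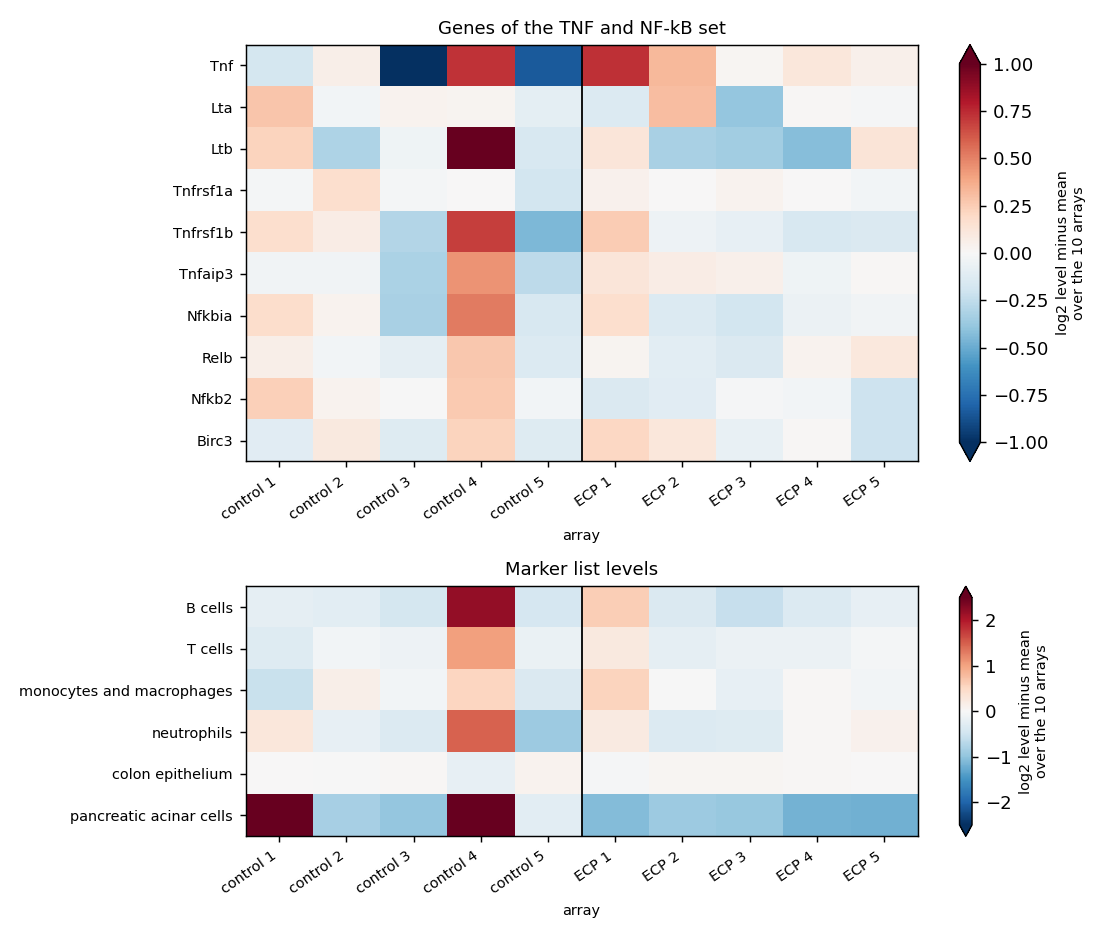
Levels of the 10 genes (upper) and of 6 marker lists (lower) in each array, as log2 level minus the mean over the 10 arrays, with separate colour scales and arrow ends for values past the scale. Control replicate 4 is high in most genes and in 5 of the 6 marker lists shown, and is lowest in colon epithelium at 12.10, and control replicates 3 and 5 are low in Tnf.

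Across the 10 arrays Tnfaip3 had the highest r with Tnf, and 2 genes, Tnfaip3 and Birc3, passed by both r and rank. Tnf was set against each of the 9 other genes, with 2-sided permutation tests of 100000 resamples adjusted over these 9 relations. The 10 genes were chosen with earlier results of these data known. The tests were not run for other genes, so no share of all genes that pass stands beside these counts. Over all genes, 3% had an r above 0.7 with Tnf. For Tnfaip3 Pearson's r was 0.906 (permutation p = 0.00022, adjusted 0.00198) and Spearman's rho 0.818 (permutation p = 0.00555, adjusted 0.025). Leaving out control replicates 3 and 5, the 2 arrays farthest from the Tnf median, r was 0.791 and rho 0.643. For Birc3 r was 0.767 (permutation p = 0.00805, adjusted 0.0241) and rho 0.842 (permutation p = 0.00364, adjusted 0.025). Without those 2 arrays r was 0.84 and rho 0.881. Without control replicate 4, chosen after the data were seen, r was 0.964 for Tnfaip3 and 0.70 for Birc3.

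Tnfrsf1b and Nfkbia passed by r but not by rank. For Tnfrsf1b r was 0.784 (permutation p = 0.00686, adjusted 0.0241) and rho 0.685 (permutation p = 0.0341, adjusted 0.102). Without the 2 arrays r was 0.667 and rho 0.405. For Nfkbia r was 0.711 (permutation p = 0.0218, adjusted 0.049) and rho 0.588 (permutation p = 0.0807, adjusted 0.145). Without them r was 0.57 and rho 0.238. Ltb, Tnf and Lta follow one another on chromosome 17 as protein-coding genes, with the miRNA gene Mir6973a between Ltb and Tnf. The r with Tnf was 0.012 for Lta (permutation p = 0.973, rho -0.042 with p = 0.919) and 0.371 for Ltb (permutation p = 0.291, rho 0.042 with p = 0.918). Without control replicate 4 the r of Ltb was -0.036. For Nfkb2 it was 0.028 (permutation p = 0.944, rho -0.236 with p = 0.511), or -0.348 without control replicate 4. Relb (r = 0.572, permutation p = 0.0841, rho 0.382 with p = 0.276) and Tnfrsf1a (r = 0.51, permutation p = 0.126, rho 0.612 with p = 0.0653) did not pass either. For Tnfrsf1a r was 0.01 and rho 0.405 without control replicates 3 and 5. With levels centred on each group's mean, also chosen after the data were seen, r was 0.954 for Tnfrsf1b, 0.934 for Tnfaip3, 0.933 for Nfkbia, 0.829 for Birc3, 0.72 for Relb, 0.67 for Ltb, 0.562 for Nfkb2, 0.504 for Tnfrsf1a and 0.131 for Lta. Without control replicate 4 and uncentred, it was 0.766 for Tnfrsf1b, 0.641 for Nfkbia, 0.404 for Relb, 0.56 for Tnfrsf1a and -0.01 for Lta. The labels and files name no batch, and the arrays share the marker differences given above.

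**Figure D4:**
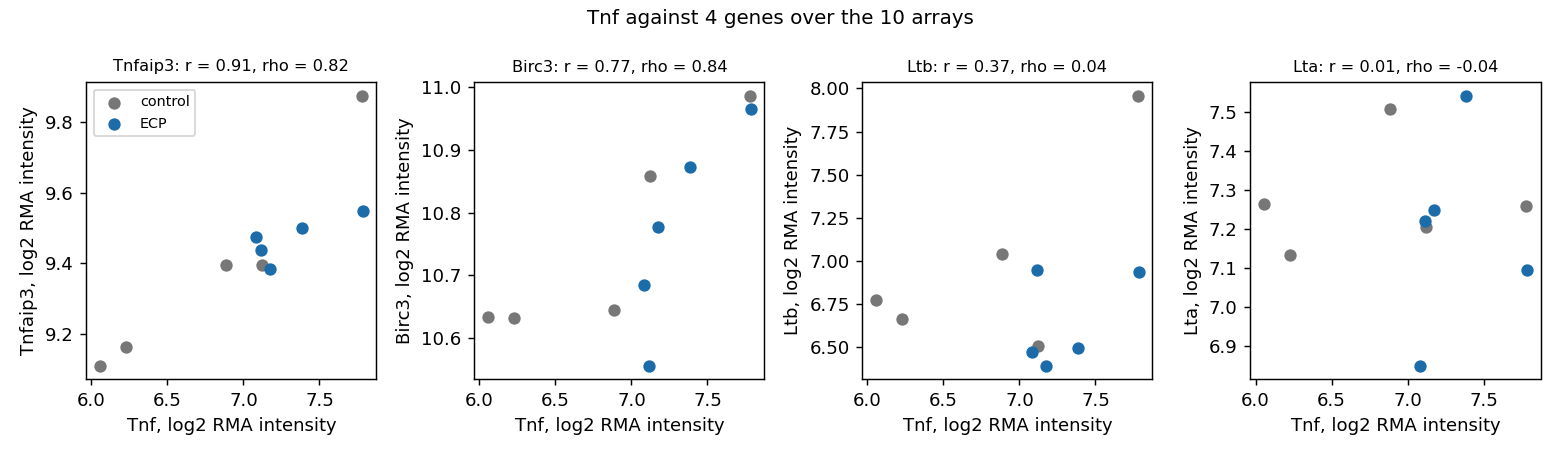
Tnf (horizontal axis) against Tnfaip3, Birc3, Ltb and Lta (vertical axes), all in log2 RMA intensity, 1 point per array, control grey and ECP blue, with r and rho over the 10 arrays. Tnfaip3 climbs with Tnf through both groups (r = 0.91), and Lta shows no such order (r = 0.01).

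Of 19504 other genes 14 had a higher r with Tnf than Tnfaip3 had, 241 a higher one than Tnfrsf1b, 295 than Birc3 and 520 than Nfkbia, and 3% of all genes had an r above 0.7. Outside the set, the genes most like Tnf over the 10 arrays were St8sia1 (r = 0.94), Ddx42 (0.94), Trim12a (0.93), H2-T22 (0.93) and Psma6 (0.92). Those most like Ltb were Eif2s3y (r = 0.98), Gngt2 (0.97), Gimap4 (0.97), Xlr4b (0.95) and Septin1 (0.95). They were picked for likeness among all genes, so their r is a description.

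The wider TNF and NF-kB pathway was taken from 9 lists holding 116 different genes, of which 109 were measured. With limma none of the 109 passed. At an unadjusted p under 0.05 the ECP mean was above the control mean for 3 and below it for 5 (all genes: 2.31% and 2.77%), and the median difference of the 109 was -0.03 against 0.01 over all genes. Control replicate 4 was the highest array for 38 of the 99 genes outside the set, and control replicate 5 the lowest for 25, against 15.7% and 7.79% of all genes.

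Of 16 measured TNF superfamily ligands 6 were higher and 10 lower, with differences of -0.36 to 0.50, and 0 passed. Cd40lg, the T cell ligand that helps B cells, stood at -0.36 (SE 0.17) and at -0.18 without control replicate 4, and Tnfsf13b, the B cell survival factor, at 0.27 (SE 0.14), or 0.15 without ECP replicate 1. Of 22 receptors 10 were higher and 12 lower. The death receptor gene Tnfrsf10b differed by -0.19 (SE 0.08), Tnfrsf18, a costimulatory receptor of regulatory T cells, by -0.21 (SE 0.09), and Tnfrsf11b, the decoy receptor osteoprotegerin, by 0.31 (SE 0.13), each with a limma adjusted p of 0.95. Tnfrsf13b, a B cell receptor, differed by -0.24 (SE 0.13), or -0.15 without control replicate 4.

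In the receptor complex 11 of 17 genes were higher and 6 lower. Traf2, the adaptor that brings Birc3 to the receptor, was at 7.97, 7.88, 7.82, 8.06 and 7.69 in ECP replicates 1 to 5 and at 8.10, 8.04, 8.13, 8.15 and 8.10 in control replicates 1 to 5. Its lowest control overlapped the highest ECP array only, and the difference was -0.22 (SE 0.08, limma adjusted p = 0.795). Tab1, which activates the kinase above the IkB kinases, differed by 0.17 (SE 0.07, adjusted p = 0.939). Of 5 IkB kinase genes and partners 2 were higher and 3 lower, and the scaffold gene Ikbkg differed by 0.12 (SE 0.11), or by 0.03 without ECP replicate 4.

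All 4 measured NF-kB subunits had lower means in the ECP arrays, Nfkb2 and Relb among them, and 0 of 4 passed, while 53.3% of all genes had a higher mean there. Rel, the subunit of activated lymphocytes, was at -0.31 (SE 0.17) and at -0.16 without control replicate 4, and Rela, the main canonical subunit, at -0.03 (SE 0.09), or 0.0093 without control replicate 2. Of 15 inhibitors and feedback genes 3 were higher and 12 lower, with a median of -0.06. Bcl3 and Nfkbid, which code for nuclear proteins of the IkB family, stood at -0.30 (SE 0.17), or -0.18 without ECP replicate 5, and at -0.23 (SE 0.24), or -0.04 without control replicate 4. Tnip1, whose product works with that of Tnfaip3, stood at -0.08 (SE 0.07), or -0.05 without control replicate 3. Otulin, which codes for an enzyme that removes linear ubiquitin chains, stood at -0.14 (SE 0.12), or -0.05 without ECP replicate 1, -0.08 without control replicate 1 and -0.07 without control replicate 4.

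Of 19 NF-kB induced genes 13 were higher and 6 lower (53.3% of all genes were higher), with a median of 0.07, 0 past the threshold and 1 at an unadjusted p under 0.05. Ptgs2, the inducible enzyme of prostaglandin synthesis, was at 8.44, 8.64, 8.41, 9.51 and 9.08 in ECP replicates 1 to 5 and at 7.73, 8.12, 8.07, 8.85 and 7.55 in control replicates 1 to 5. All controls but replicate 4 lay below every ECP array, and the difference was 0.75 (SE 0.26, limma adjusted p = 0.807). Csf2 stood at -0.20 (SE 0.11), or -0.14 without control replicate 5, and Irf1 at -0.13 (SE 0.07). Of 5 lymphoid chemokines and addressins that depend on lymphotoxin 1 was higher and 4 lower. The addressin gene Madcam1 differed by -0.23 (SE 0.22), or -0.04 without control replicate 4, and the chemokine gene Ccl21a by -0.17 (SE 0.32), or 0.03 without it. Of 8 genes for TNF shedding and mRNA decay 3 were higher and 5 lower, and Rhbdf2, a partner of the enzyme that sheds TNF, differed by -0.19 (SE 0.07, adjusted p = 0.862).

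**Figure D5:**
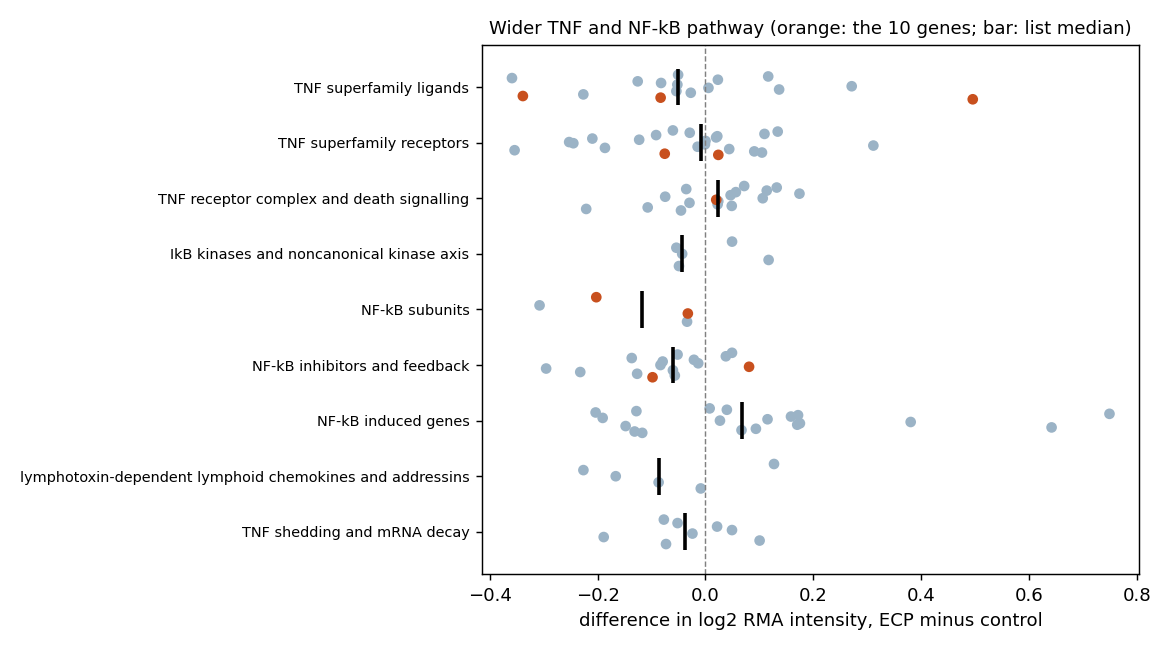
Difference in log2 RMA intensity, ECP minus control, of each measured gene in the 9 pathway lists, with the 10 genes in orange and a bar at each list's median. List medians lie between -0.12 for the NF-kB subunits and 0.07 for NF-kB induced genes, and single genes spread on both sides of 0 in 8 of the 9 lists.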

How the data were processed

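Total RNA of 10 colon samples was measured on Clariom S Mouse arrays. The authors' deposited table holds log2 intensities per probe set. Per the submitters' processing notes these come from RMA in oligo, whose version is not given in the sources used here. RMA gives all arrays nearly the same distribution and so hides a shift common to most genes. Of 22203 probe sets 19572 had 1 gene symbol through the platform annotation, all matched in a RefSeq gene table, and 2631 were unnamed. The probe set with the highest mean over the 10 arrays stood for a gene, which left 19505 genes. Array medians were 6.94 to 6.98, and pairwise correlations 0.977 to 0.996.

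ECP and control arrays, grouped by title, were compared with limma 3.58.1 in R 4.3.3 (lmFit, eBayes, no covariate), adjusted over all genes at 0.05. The script was tested on simulated data. Marker lists were averaged per array over their measured genes, on the log2 scale. Promoter sequences came from RefSeq (GRCm38.p6). Named were the 10 genes, up to 4 genes of smallest p per pathway list, and the 5 genes most like Tnf and Ltb. The genes and lists were chosen with earlier results of these data known. Alternatives were other scalings, filters, probe set rules, variance models, array weights, covariates, a replicate block and left-out arrays. The number of arrays limits the precision.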

Additional observations from a re-analysis of the deposited data

Results flagged for a closer look

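In 3 of 62 groups of 5 arrays, over the 10 genes and the 21 pathway genes named, 1 array lay far from the others relative to the group's range, and chance flags about 3.1. One of the 20 groups of the 10 genes was among them, with Tnfrsf1b at 9.83 in ECP replicate 1 and the next ECP array at 9.53. Among pathway genes, Cd40lg was at 5.17 in control replicate 4 with the next control at 4.38, and Tnfrsf18 at 6.99 in control replicate 5 with the next at 7.30.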

How the results depend on the processing

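The count of 0 of the 10 genes past the threshold held under all 23 alternatives, as did 0 of the 109 pathway genes. However, leaving out genes below the median level removed Tnf and Ltb and left 8 of the 10 to test. Over all genes the count of 0 became 1 without the lowest quartile of genes, 7 without genes below the median, and 1 with trend and robust options, and it ranged from 0 to 1 over the arrays left out singly. The replicate numbers did not pair the arrays (correlations of same-numbered arrays from -0.24 to 0.08), and with the replicate block the counts were 0 for all genes, for the 10 genes and for the pathway genes, and the Tnf difference was 0.50 (SE 0.23). Differences of Tnf, Tnfaip3 and Nfkb2 kept their sign under each alternative that tested them. Leaving out 1 array at a time, differences ranged from -0.17 to 0.0025 for Lta, -0.020 to 0.068 for Tnfrsf1a, -0.20 to 0.087 for Tnfrsf1b, -0.19 to 0.020 for Nfkbia, -0.070 to 0.031 for Relb, -0.029 to 0.079 for Birc3, -0.10 to 0.0093 for Rela and -0.48 to 0.035 for Ccl21a. Signs also turned with renewed quantile normalization for Birc3 (-0.00033), with array weights for Tnfrsf1b (0.042) and Relb (0.0060), without control replicates 1 and 4 for Ltb (0.0027), Tnfrsf1b (0.18), Nfkbia (0.10), Otulin (0.020) and Relb (0.066), with the B cell level for Tnfrsf1b (0.038) and Relb (0.010), with the acinar level for Ltb (0.11), Tnfrsf1b (0.25), Nfkbia (0.15), Otulin (0.044) and Relb (0.087), and with the monocyte and macrophage level for Birc3 (-0.022). The cause was not tested.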
